A study of Mus musculus with 21 samples.

Results

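The mitochondrial ribosomal proteins are the proteins that, with the ribosomal RNAs made from mitochondrial DNA, build the ribosome inside mitochondria. Members were all genes whose symbol on the array annotation starts with Mrpl (large subunit) or Mrps (small subunit) followed by a digit, and each was represented by its probe set with the highest mean over all arrays. The rule gave 76 genes of 18193 on the array, from 156 probe sets, and all 76 were among the 12155 genes bright enough to be tested. By role, 16 are small subunit proteins with a bacterial counterpart, 10 are small subunit proteins particular to mitochondria, 29 are large subunit proteins with a bacterial counterpart and 20 are large subunit proteins particular to mitochondria. The remaining member, Mrps36, keeps a ribosomal name but belongs to the alpha-ketoglutarate dehydrogenase complex.

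RNA was measured on 21 Affymetrix arrays in 3T3-L1 cells, a mouse preadipocyte line, after 14 days of differentiation into adipocytes. The 7 groups of 3 arrays were a control at 0 h and treated cells, taken after 2 h, 24 h or 6 d. Treatment was 20 nM of the glucocorticoid dexamethasone (Dex) or the cytokine tumour necrosis factor alpha (TNF), both of which make adipocytes respond less to insulin, and the study's question is how expression shifts at early and late stages of that loss. All groups are 1 established cell line in culture, the labels call the replicates biological, and they give neither the TNF dose nor a vehicle. The only control is at 0 h, so each treated group is set against the same 0 h arrays. In a change against control, treatment and further time in culture cannot be told apart.

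Mitochondrial ribosomes translate the few messenger RNAs encoded by mitochondrial DNA, all of which specify subunits of the respiratory chain and the ATP synthase. Their RNAs come from mitochondrial DNA but every protein of the ribosome is encoded in the nucleus, made in the cytosol and imported, and many of the proteins have no relative in bacterial ribosomes. Adipocytes gain mitochondria as they differentiate, and respiratory chain subunits of both genomes are needed for the lipid synthesis and oxidation of the mature cell.

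The start regions of 5 members named in the results below are shown as sequence, and no result rests on them. Mrpl12, Mrps22 and Mrpl39 were lower after 6 d of TNF. Mrps18b was higher after 24 h and 6 d of Dex and lower after 6 d of TNF. Mrps6 was lower after 24 h and 6 d of Dex. Each line gives the 250 bases before the RefSeq start site, 5′ to 3′ on the gene's strand, in GRCm38.p6. Capitals mark the letters searched for on both strands: the NRF1 core GCGCATGC, the ETS motif CCGGAAG, the YY1 motif AAGATGGC, the E-box CACGTG and the SP motif GGGCGG.
Mrpl12 lies at chr11:120484387-120484636 on the plus strand.
Mrpl12: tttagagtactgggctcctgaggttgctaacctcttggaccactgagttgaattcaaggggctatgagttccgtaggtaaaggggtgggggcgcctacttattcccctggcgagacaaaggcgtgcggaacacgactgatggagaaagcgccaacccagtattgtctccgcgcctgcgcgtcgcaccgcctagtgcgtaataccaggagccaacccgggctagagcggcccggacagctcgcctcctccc
Mrps22 lies at chr9:98601680-98601929 on the minus strand.
Mrps22: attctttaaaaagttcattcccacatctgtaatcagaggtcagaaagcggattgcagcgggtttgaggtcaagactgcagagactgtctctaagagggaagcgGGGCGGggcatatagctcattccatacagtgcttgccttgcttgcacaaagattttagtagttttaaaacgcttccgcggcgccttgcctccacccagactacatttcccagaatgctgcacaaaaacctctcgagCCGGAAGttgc
Mrpl39 lies at chr16:84735245-84735494 on the minus strand.
Mrpl39: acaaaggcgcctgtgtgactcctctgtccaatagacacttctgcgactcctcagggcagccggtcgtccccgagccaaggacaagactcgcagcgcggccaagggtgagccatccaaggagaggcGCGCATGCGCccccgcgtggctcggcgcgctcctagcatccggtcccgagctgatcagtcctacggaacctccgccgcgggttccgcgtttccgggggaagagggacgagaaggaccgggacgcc
Mrps18b lies at chr17:35916441-35916690 on the minus strand.
Mrps18b: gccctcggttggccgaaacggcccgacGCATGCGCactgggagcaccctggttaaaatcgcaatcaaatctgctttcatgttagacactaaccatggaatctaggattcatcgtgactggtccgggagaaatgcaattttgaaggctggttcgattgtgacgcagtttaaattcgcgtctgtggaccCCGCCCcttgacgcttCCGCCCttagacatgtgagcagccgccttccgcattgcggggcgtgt
Mrps6 lies at chr16:92058086-92058335 on the plus strand.
Mrps6: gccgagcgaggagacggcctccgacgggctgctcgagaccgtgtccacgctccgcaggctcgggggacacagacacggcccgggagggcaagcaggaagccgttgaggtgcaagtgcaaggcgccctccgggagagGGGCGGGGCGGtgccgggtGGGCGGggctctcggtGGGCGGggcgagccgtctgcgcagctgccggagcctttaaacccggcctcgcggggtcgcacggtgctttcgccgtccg
The Mrpl12 region holds none of the searched letters, Mrps22 holds an ETS and an SP match, Mrpl39 holds NRF1 core letters on both strands that overlap each other, and Mrps18b holds an NRF1 core and 2 SP matches. Mrps6 holds 4 SP matches, of which the 2 farthest from the start overlap.

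RefSeq start windows of 300 bases, from 250 before to 50 after the start, were matched for 67 of the 76 members. The ETS letters, bound by GABP among other factors, were in 25 of these 67, or 37.3%, against 12.9% of the windows of 17492 protein-coding genes. The NRF1 core, the site of a known activator of nuclear genes for mitochondrial proteins, was in 8 members, or 11.9%, against 3.94% of all genes. The YY1 letters were in 12 members, or 17.9%, against 3.57%. The E-box letters were in 5 members (7.46%) against 8.91%, and the SP letters in 34 (50.7%) against 49.2%. A match describes the sequence only, and no binding was measured.

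Array quality bears on every value below. TNF 6 d replicate 2 stood apart, with the SD of its values at 2.04, where the other 20 arrays had 2.44 to 2.51. It also had a difference of 2.00 between the 3′ and 5′ control probe sets of Actb and Gapdh, a measure of RNA degradation. This difference was raised on 3 more arrays, which were Dex 6 d replicate 2 at 0.777, replicate 2 of TNF 2 h at 0.736 and replicate 3 of TNF 24 h at 0.683, and it lay between 0.0210 and 0.283 on the other 17 arrays. Results are therefore given with all 21 arrays and without TNF 6 d replicate 2, and where a count depends on it also on the 17 arrays. All 9 measured adipocyte markers were above 5.34, the median of all values, on every array. The macrophage markers Adgre1, Ptprc and Itgam and the endothelial markers Pecam1, Cdh5 and Tek were below it on all 21. The macrophage markers Csf1r and Cd14 and the endothelial marker Kdr were above it on all 21, and Cd68 on 10. In bulk RNA, fewer cells of a type and less RNA per cell cannot be told apart.

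Across the 76 members the array medians, as log2 differences from the mean of the control arrays, were 0.06, 0.08 and -0.14 in control replicates 1 to 3. They were -0.29, -1.69 and -0.30 in the TNF 6 d arrays, where 69, 74 and 70 of the 76 members lay below their control mean. Control replicate 3 itself had 69 members below that mean, with a smaller median difference, and replicates 2 and 3 of TNF 2 h had 65 each, so these counts alone do not set the TNF 6 d arrays apart. After TNF for 24 h they were -0.16, -0.14 and 0.18, so that the array with the high 3′ minus 5′ difference was the one above control. The Dex arrays lay between -0.19 and 0.08, within or near the span of the controls.

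**Figure D1:**
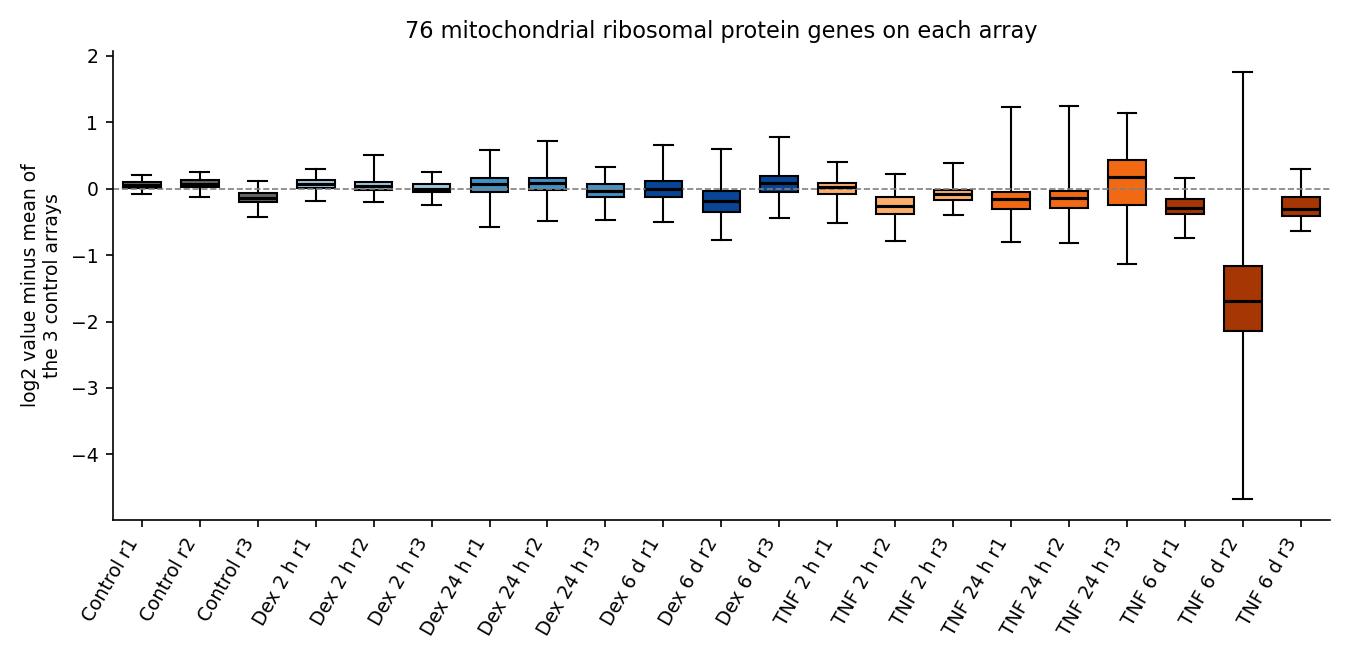
Log2 value of the 76 mitochondrial ribosomal protein genes on each of the 21 arrays, minus each gene's mean over the 3 control arrays (box: quartiles, line: median, whiskers: lowest and highest gene). The medians of TNF 6 d replicates 1 and 3, at -0.29 and -0.30, lie below every control median, and replicate 2 lies far lower at -1.69.

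After 6 d of TNF the mitochondrial ribosomal proteins were lower as a group, and the fall included proteins of both subunits. With all 21 arrays 27 of the 76 members fell and 0 rose (limma, adjusted p below 0.05 over all genes tested), with a median log2 change of -0.77 and 75 members below control. Of all genes tested 15.2% were called either way and 10.7% were called lower, and the median change of all genes was -0.23. Without TNF 6 d replicate 2, 20 members fell and 0 rose, the median was -0.29 and 71 members were below control, against 20.5% of all genes called, 9.94% lower, and a median of -0.05. All 20 were also among the 27, and the fits share their arrays, so this overlap is not independent evidence. On the 17 arrays 42 members fell, against 33.3% of all genes called and 17.6% lower.

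Leaving out TNF 6 d replicate 1 or 3 gave 65 and 66 called members, and leaving out control replicate 1, 2 or 3 gave 5, 4 and 13. The share of all genes called in these fits is not given here, so the counts show only how the calls moved. The median stayed below 0 in these 5 fits, between -1.01 and -0.72, and moved to -0.29 only in the fits without TNF 6 d replicate 2. After median centring of the arrays it was -0.82 and after quantile normalization -0.50.

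Among small subunit proteins particular to mitochondria, 6 of 10 fell after 6 d of TNF without replicate 2, with a median of -0.37. Mrps31, a protein of the head of the small subunit, was at 9.83, 9.93 and 9.67 in the control arrays and at 9.29, 8.08 and 9.25 in the TNF 6 d arrays. Every TNF array was below every control array. The log2 change was -0.94 ± 0.23 (SE, limma adjusted p = 0.0118), and -0.54 ± 0.12 without replicate 2 (adjusted p = 0.00239). Its second probe set, too dim to pass the filter, moved by -0.15 without replicate 2.

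Mrps35, another head protein, had control values of 10.95, 11.003 and 10.68 and TNF 6 d values of 10.45, 8.35 and 10.29, with no overlap. Its change was -1.18 ± 0.35 (limma adjusted p = 0.0323), and -0.50 ± 0.13 without replicate 2 (adjusted p = 0.00997). Mrps22, a small subunit protein known from inherited mitochondrial disease, was at 10.28, 10.30 and 9.94 in control and at 9.73, 8.26 and 9.67 after TNF. The TNF arrays were again all below the controls, and the change was -0.96 ± 0.27 (limma adjusted p = 0.0218), or -0.48 ± 0.12 without replicate 2 (adjusted p = 0.00533).

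Small subunit proteins with a bacterial counterpart gave 4 of 16 lower without replicate 2, with a median of -0.20. Mrps5, a conserved protein of this subunit, was at 9.48, 9.53 and 9.53 in control and at 8.78, 6.16 and 9.03 after 6 d of TNF, without overlap. It fell by 1.52 on the log2 scale (SE 0.45, limma adjusted p = 0.0314), and by 0.61 without replicate 2 (SE 0.11, adjusted p = 0.000483). The other 4 Mrps5 probe sets did not follow it closely, with changes without replicate 2 of 0.21, -0.08, -0.26 and -0.28. Mrps28 changed by -0.45 ± 0.15 without replicate 2 (limma adjusted p = 0.0369) and Mrps2 by -0.29 ± 0.10 (adjusted p = 0.0467).

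Large subunit proteins with a bacterial counterpart gave 5 of 29 lower without replicate 2, with a median of -0.33. Mrpl20 had control values of 11.66, 11.70 and 11.46 and TNF 6 d values of 10.86, 9.47 and 11.01, below every control. Its change of -1.16 ± 0.28 (limma adjusted p = 0.00919) became -0.67 ± 0.14 without replicate 2 (adjusted p = 0.00172), the lowest of all members on those arrays. Mrpl16 changed by -0.52 ± 0.20 and Mrpl34 by -0.44 ± 0.16 without replicate 2, and these missed the threshold there (limma adjusted p = 0.0745 and 0.0523) although both were called with all 21 arrays.

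Mrpl12 forms the stalk of the large subunit, to which translation factors bind, and has also been reported to bind the mitochondrial RNA polymerase. It was the member called in the most comparisons with control when all 21 arrays were used, at both later TNF times. Its values were 12.05, 12.05 and 12.09 in control, 11.85, 11.70 and 11.78 after 2 h of TNF, 11.27, 11.25 and 11.66 after 24 h, and 11.57, 10.96 and 11.51 after 6 d. All 9 TNF arrays were below all 3 control arrays. The change was -0.67 ± 0.15 at 24 h (limma adjusted p = 0.00627) and -0.72 ± 0.15 at 6 d (adjusted p = 0.00412), and without replicate 2 the value at 6 d was -0.52 ± 0.10 (adjusted p = 0.000971).

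Of the other proteins of the stalk base, Mrpl10 was at 10.38, 10.24 and 10.24 in control and 9.91, 6.73 and 10.01 after 6 d of TNF, and its change was -0.33 in the fits without replicate 2. That change was not called on the 20 arrays (limma adjusted p = 0.352) and was called on the 17 (adjusted p = 0.00298). Mrpl11 was at 11.03, 11.04 and 11.02 in control and 10.92, 10.24 and 10.93 after 6 d of TNF, below control on each array but not called with 21, 20 or 17 arrays. The 3 stalk proteins therefore all lay below control at 6 d, and only Mrpl12 was called in each of these fits.

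Large subunit proteins particular to mitochondria gave 5 of 20 lower without replicate 2, with a median of -0.29. Mrpl46, a protein of the central protuberance, had control values of 9.69, 9.80 and 9.49 and TNF 6 d values of 9.28, 7.47 and 9.02. All TNF arrays were lower, and the change was -1.07 ± 0.30 (limma adjusted p = 0.0249), or -0.51 ± 0.13 without replicate 2 (adjusted p = 0.00814). Mrps30, which sits in the large subunit in spite of its name, changed by -0.50 ± 0.10 without replicate 2 (adjusted p = 0.00104).

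Mrpl39 was at 12.25, 12.37 and 12.15 in control and at 11.89, 11.41 and 11.74 after 6 d of TNF, with no overlap. Its change was -0.57 ± 0.13 (limma adjusted p = 0.00623), and -0.44 ± 0.10 without replicate 2 (adjusted p = 0.00228). Its second probe set changed by -0.38 without that array.

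The exit of the peptide tunnel, where new proteins meet the inner membrane, is lined by Mrpl22, Mrpl23, Mrpl24 and Mrpl45, and none of these was called after 6 d of TNF on the 21 or 20 arrays. Mrpl22 was at 10.91, 10.96 and 10.59 in control and 10.44, 9.23 and 10.47 after TNF, with every TNF array below every control. Its change without replicate 2 was -0.37 ± 0.20 (limma adjusted p = 0.211), and -0.37 ± 0.09 on the 17 arrays, where it was called (adjusted p = 0.00683). Mrpl45, which links the ribosome to the membrane, was at 10.35, 10.44 and 9.76 in control and 10.10, 8.16 and 9.91 after TNF, and control replicate 3 lay below TNF replicates 1 and 3. Mrpl24 stayed at 11.67 and 11.69 on TNF 6 d replicates 1 and 3 against 11.60 to 11.73 in control, and was at 9.66 on replicate 2.

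**Figure D2:**
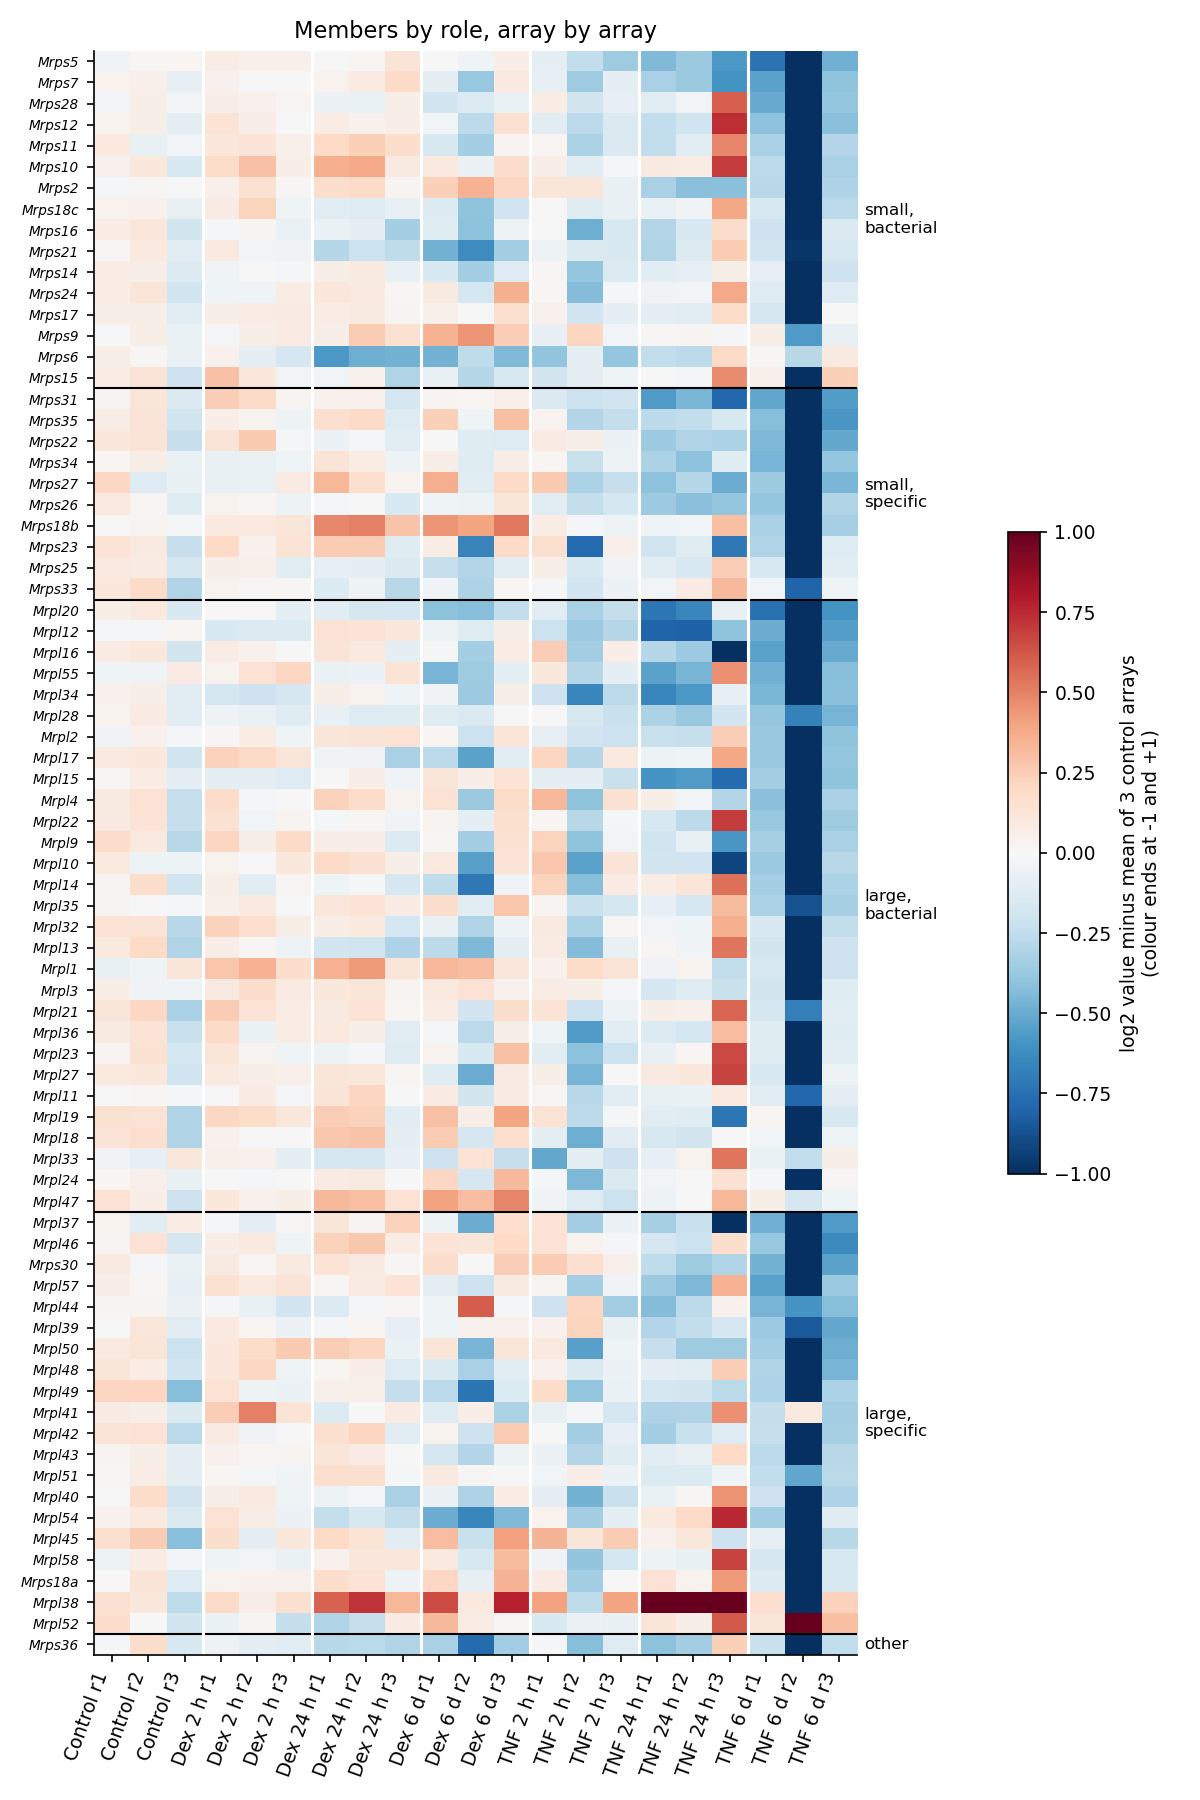
Each of the 76 members (rows, grouped by role and sorted within a group by the change after 6 d of TNF without replicate 2) on each of the 21 arrays (columns), as the log2 value minus the mean of the 3 control arrays, with the colour scale ending at -1 and +1. TNF 6 d replicate 2 is low in 74 of 76 rows, TNF 24 h replicate 3 differs from the other TNF 24 h arrays in many rows, and Mrpl38 is high in all 3 TNF 24 h arrays.

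After 24 h of TNF single members of both subunits were lower, while the median of the family, -0.06, was close to the -0.03 of all genes tested, with 30 members above and 46 below control. With all 21 arrays only Mrpl12 was called, against 8.69% of all genes called and 3.27% lower. Without TNF 6 d replicate 2, which here only enters the shared estimate of the spread, 16 members fell and 1 rose, against 25.6% of all genes called and 12.4% lower. On the 17 arrays, which leave out TNF 24 h replicate 3, 25 fell and 1 rose, 63 lay below control and the median was -0.15 against -0.05 for all genes, of which 30.4% were called, 15.9% lower. All 17 members called without replicate 2 were also called, in the same direction, on the 17 arrays.

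Mrpl15, a core protein of the large subunit, was at 11.46, 11.52 and 11.35 in control and at 10.85, 10.88 and 10.67 after 24 h of TNF, a clear separation. Its change was -0.64 ± 0.20 (limma adjusted p = 0.0516), and on the same arrays with the spread estimated without TNF 6 d replicate 2 it was -0.64 ± 0.08 (adjusted p = 4.16e-06). The other 6 bright Mrpl15 probe sets changed by -0.31 to -0.77. Mrps31 was at 9.24, 9.35 and 9.03, also below every control array, with a change of -0.60 ± 0.11 without replicate 2 (adjusted p = 0.000206).

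Mrpl38, of the central protuberance, was the only member called higher after 24 h of TNF without TNF 6 d replicate 2. Other members also lay above control at that time but were not called higher. The values of Mrpl38 were 9.57, 9.52 and 9.16 in control and 10.64, 10.66 and 10.55 after 24 h of TNF. All 3 TNF arrays were above all control arrays, and the change was 1.20 ± 0.58 with all arrays (limma adjusted p = 0.278) and 1.20 ± 0.18 without TNF 6 d replicate 2 (adjusted p = 2.85e-05). Its other probe sets changed by 0.69 and 0.34. After 6 d of TNF it was at 9.58, 6.17 and 9.65, so replicates 1 and 3 were close to the highest control array.

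By role, 4 of 10 small subunit proteins particular to mitochondria fell after 24 h of TNF without TNF 6 d replicate 2 (median -0.31), against 3 of 16 of those with a bacterial counterpart (median -0.00). In the large subunit 6 of 29 with a bacterial counterpart fell (median -0.07), and of 20 particular to mitochondria 3 fell and 1 rose (median -0.06). Differences between the role groups were not tested. On TNF 24 h replicate 3 the upper quartile of the members was 0.43 above control and the lower quartile 0.25 below, a wider spread than on replicates 1 and 2, where it ran from -0.31 to -0.05 and from -0.29 to -0.03.

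After 2 h of TNF, limma called 0 members with all arrays and 0 without TNF 6 d replicate 2, with 1 and 4 at an unadjusted p below 0.05, against 3.82% and 10.7% of all genes called. The median was -0.11 against -0.05 for all genes, with 63 of 76 below control. It was -0.03 on the 17 arrays, where 5 members fell and 1 rose against 19.4% of all genes called. The 3 largest differences were those of Mrpl34, Mrps6 and Mrpl12. Mrpl34 was at 11.23, 11.25 and 11.09 in control and 10.98, 10.54 and 10.93 after 2 h, with no overlap, but was not called (-0.37 ± 0.14 without replicate 2, limma adjusted p = 0.103). Its change on the 17 arrays was -0.24 ± 0.07 and was called (adjusted p = 0.0198).

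Between 24 h and 6 d of TNF, 5 members fell and 0 rose with all arrays (5.99% of all genes called) and 6 fell without replicate 2 (9.2%). Mrpl38 returned towards control, with a change of -1.002 ± 0.20 without replicate 2 (limma adjusted p = 0.00207), and Mrps18b, Mrps28, Mrps10 and Mrpl54 fell in both fits. The last 3 of these changed by -0.60, -0.58 and -0.58 without replicate 2, and by -0.38 each on the 17 arrays, which leave out TNF 24 h replicate 3 and where they were still called. Between 2 h and 24 h of TNF, 0 members were called with all arrays (6 at an unadjusted p below 0.05, 5.69% of all genes called). Without TNF 6 d replicate 2, 8 fell and 4 rose (22.1%), among them Mrpl16 (-0.58 ± 0.18) and Mrpl15 (-0.51 ± 0.08) lower and Mrpl38 (1.02 ± 0.18) higher. The value of Mrpl16 rests in part on TNF 24 h replicate 3, at 10.13 against 10.98 and 10.90 on replicates 1 and 2. Without that array alone it was -0.31, and on the 17 arrays -0.48 ± 0.10.

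**Figure D3:**
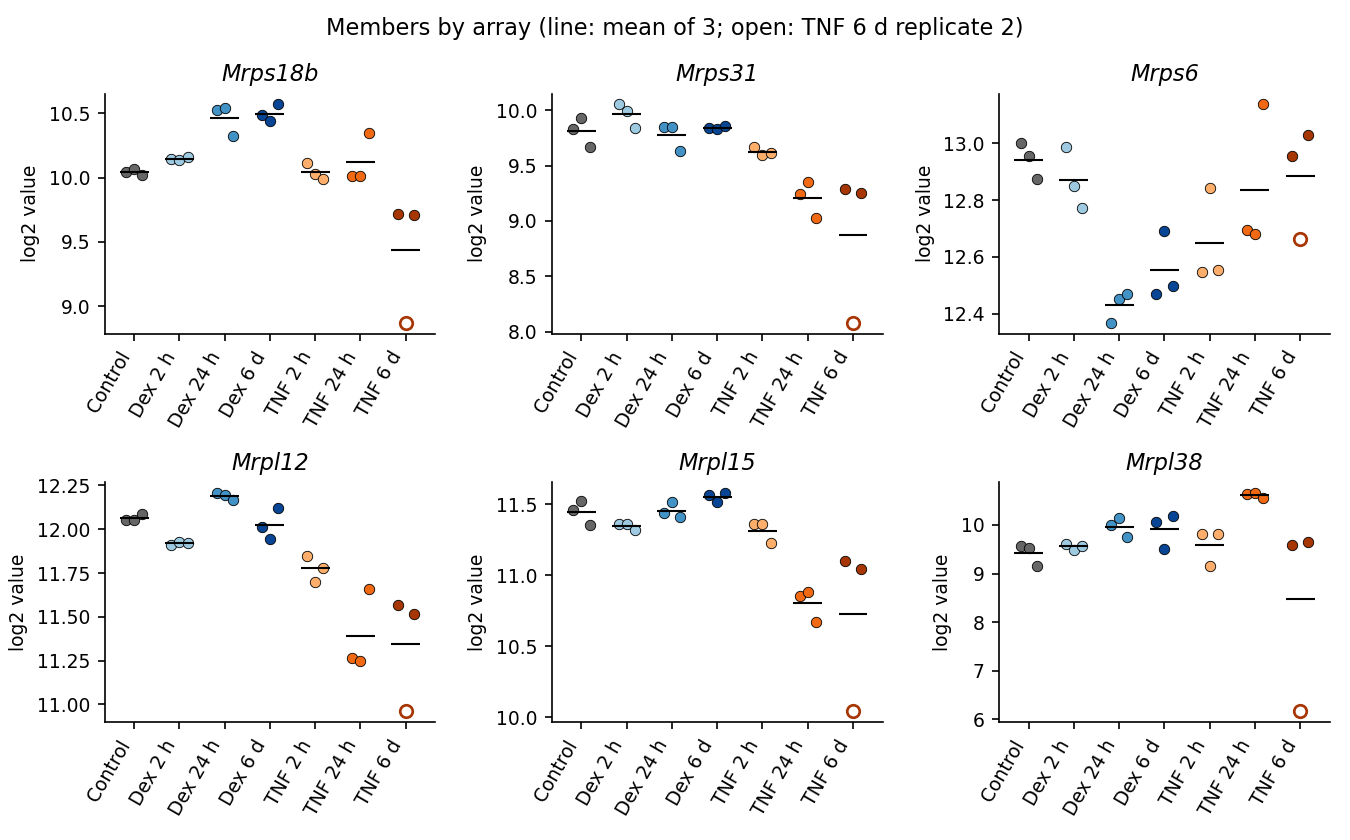
Log2 values of 6 members on every array (points, with a line at the mean of the 3 arrays; TNF 6 d replicate 2 is the open point). Mrps18b is highest after 24 h and 6 d of Dex, Mrps6 is lowest after 24 h of Dex, Mrpl12, Mrpl15 and Mrps31 are low after 24 h and 6 d of TNF, and Mrpl38 is highest after 24 h of TNF.

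Dex left most members near control at all 3 times, and single members moved each way. At 2 h limma called 0 members with all arrays and 0 without TNF 6 d replicate 2 (0 and 1 at an unadjusted p below 0.05), against 2.48% and 7.12% of all genes. The median was 0.04 against -0.02 for all genes, and all members lay between -0.18 and 0.30. Mrpl41, Mrpl1 and Mrpl34 had the largest differences, 0.30, 0.27 and -0.18. Mrpl41 had values of 11.11, 11.36 and 10.99 against 10.94, 10.91 and 10.71 in control.

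At 24 h of Dex 1 member, Mrps6, fell with all arrays (4.18% of all genes called). With TNF 6 d replicate 2 left out, Mrps6 fell and Mrps18b and Mrpl38 rose (13.2%), and on the 17 arrays 3 fell and 5 rose (23.3%). The median was 0.05, against -0.00 for all genes.

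Mrps6, the counterpart of bacterial ribosomal protein S6 in the small subunit, was at 12.999, 12.95 and 12.87 in control, 12.37, 12.45 and 12.47 after 24 h of Dex and 12.47, 12.69 and 12.50 after 6 d. The Dex arrays of both times lay below all controls. The change was -0.51 ± 0.14 at 24 h (limma adjusted p = 0.041) and -0.39 ± 0.14 at 6 d (adjusted p = 0.104), and without TNF 6 d replicate 2 the adjusted p was 0.00236 and 0.0123.

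Same-numbered arrays of control and Dex 24 h deviated together, and in a limma fit blocked on that number the adjusted p of Mrps6 at 24 h was 0.0596. The call at 24 h was also lost when any 1 of the 3 control or 3 Dex 24 h arrays was left out (limma adjusted p 0.0817 to 0.173). The second Mrps6 probe set changed by -0.55 at 24 h and -0.59 at 6 d. In RefSeq the Mrps6 gene overlaps Slc5a3, which encodes an inositol transporter, and the Slc5a3 probe set changed by -0.52 ± 0.16 at 24 h without TNF 6 d replicate 2 (adjusted p = 0.0392). Signal from these genes cannot be told apart where they share transcript sequence.

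Mrps18b, 1 of 3 proteins related to bacterial S18, was at 10.04, 10.07 and 10.02 in control, 10.14, 10.14 and 10.16 after 2 h of Dex, 10.52, 10.54 and 10.33 after 24 h and 10.49, 10.44 and 10.57 after 6 d. All 9 Dex arrays were above all controls. The change was 0.42 ± 0.19 at 24 h and 0.45 ± 0.19 at 6 d with all arrays (limma adjusted p = 0.365 and 0.184). In the fit without TNF 6 d replicate 2 these were 0.42 ± 0.10 and 0.45 ± 0.10 (adjusted p = 0.00549 and 0.00171). After 6 d of TNF it was at 9.72, 8.87 and 9.71 and fell, by 0.33 on the log2 scale without replicate 2 (SE 0.11, adjusted p = 0.0392).

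Its relatives Mrps18a and Mrps18c were not called in any comparison with control with all arrays or without TNF 6 d replicate 2, while on the 17 arrays Mrps18a was higher after 6 d of Dex (0.27, limma adjusted p = 0.0173) and Mrps18c lower after 6 d of TNF (-0.22, adjusted p = 0.0314). Mrps18a, a large subunit protein, was at 11.94, 11.90 and 11.71 after 24 h of Dex against 11.76, 11.90 and 11.64 in control. Mrps18c was at 11.68, 11.66 and 11.71 against 11.82, 11.83 and 11.71. The 3 related genes therefore differed in their values under Dex, and whether their changes differ was not tested.

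At 6 d of Dex limma called 0 members with all arrays (6 at an unadjusted p below 0.05), against 8.3% of all genes. When that TNF array was left out, 5 fell and 5 rose (23.9% of all genes), and on the 17 arrays 5 fell and 9 rose (30.7%). The median was -0.04, or 0.04 on the 17 arrays, against -0.02 for all genes. The lower members without replicate 2 were Mrpl54 (-0.53 ± 0.14), Mrps21 (-0.48 ± 0.12), Mrps36 (-0.48 ± 0.15), Mrps6 and Mrpl20 (-0.36 ± 0.13). The higher ones were Mrpl38 (0.51 ± 0.18), Mrps18b, Mrpl47 (0.40 ± 0.11), Mrps9 (0.34 ± 0.10) and Mrps2 (0.26 ± 0.09).

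Mrpl54, a large subunit protein, was at 9.88, 9.94 and 9.70 in control and 9.34, 9.18 and 9.40 after 6 d of Dex, below every control (limma adjusted p = 0.277, and 0.00993 without TNF 6 d replicate 2). Mrps21 was at 11.01, 11.10 and 10.88 in control and 10.52, 10.37 and 10.65 after 6 d of Dex, also with no overlap. Mrps36, the dehydrogenase subunit, was at 10.70, 10.90 and 10.57 in control and 10.40, 9.95 and 10.38 after 6 d of Dex, where replicate 2 is an array with a high 3′ minus 5′ difference.

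Between times of Dex few members were called. From 2 h to 24 h limma called 0 with all arrays (1 at an unadjusted p below 0.05, 3.62% of all genes called), and without TNF 6 d replicate 2 Mrps18b rose by 0.32 ± 0.10 and Mrps6 fell by 0.44 ± 0.11 (13.5% of all genes). From 24 h to 6 d limma called 0 with all arrays and 0 without TNF 6 d replicate 2 (0 and 4 at an unadjusted p below 0.05), against 0.683% and 4.5% of all genes.

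Set directly against each other, Dex and TNF arrays differed in 0, 2 and 31 members at 2 h, 24 h and 6 d when all arrays were used. The control arrays do not enter these differences, only the shared estimate of the spread. At 2 h limma called 0 members with all arrays (0 at an unadjusted p below 0.05, 5.97% of all genes called), and without TNF 6 d replicate 2 Mrps31 was 0.34 ± 0.11 higher under Dex (14.8%). At 24 h Mrpl12 (0.80 ± 0.15, limma adjusted p = 0.000982) and Mrpl15 (0.65 ± 0.20, adjusted p = 0.0341) were higher under Dex with all arrays, against 13.5% of all genes called and 5.89% higher.

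On the 20 arrays without TNF 6 d replicate 2, 20 members were higher and 5 lower under Dex at 24 h (33% of all genes called, 16.9% higher), and on the 17 arrays 36 were higher and 3 lower (39%, 21.7% higher). The 5 lower ones were Mrpl38 (-0.66 ± 0.18), Mrpl54 (-0.56 ± 0.14), Mrpl52 (-0.41 ± 0.14), Mrps6 (-0.41 ± 0.11) and Mrpl13 (-0.41 ± 0.15). Of these, all but Mrpl38 were highest among the TNF 24 h arrays on replicate 3, with its high 3′ minus 5′ difference. With the 17 arrays Mrpl54 was at -0.36, Mrps6 at -0.26, Mrpl52 at -0.24 and Mrpl13 at -0.22, and the last pair were not called (limma adjusted p = 0.159 and 0.125). Left-out arrays of these groups moved the count of 2 with all arrays to 1 when Dex 24 h replicate 1, 2 or 3 or TNF 24 h replicate 1 or 3 was missing.

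At 6 d 31 members were higher and 0 lower under Dex with all arrays, with a median difference of 0.79 against 0.20 for all genes, of which 23.7% were called and 15.9% were higher. With the outlying array left out, 24 were higher and 1, Mrps6, was lower, with a median of 0.29 against 0.03 for all genes, of which 30.1% were called and 14.4% were higher. On the 17 arrays 46 were higher and 2 lower, against 39.2% and 18.2% higher. The largest difference without replicate 2 was that of Mrps18b, at 0.78 ± 0.11 (limma adjusted p = 1.28e-05), followed by Mrps35 (0.67 ± 0.13) and Mrpl46 (0.66 ± 0.13). Leaving out Dex 6 d replicate 1, 2 or 3 lowered the count of 31 to 13, 19 and 15, and leaving out TNF 6 d replicate 1 or 3 raised it to 60 and 59. The share of all genes called in these leave-out fits is not given here.

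Genes of the same pathway were counted beside the members, without TNF 6 d replicate 2 unless stated. In that fit 25.6% of all genes were called at 24 h of TNF (12.4% lower) and 20.5% at 6 d (9.94% lower). With all 21 arrays these shares were 8.69% (3.27% lower) and 15.2% (10.7% lower). The TNF counts of the companion lists stand beside these shares, and no list was tested as a set. The ribosomal proteins that carry other names include Dap3, a GTP-binding protein of the small subunit, and Ptcd3, which binds RNA there. After 6 d of TNF 2 of these 4 fell, Ptcd3 by 0.61 ± 0.14 and Dap3 by 0.39 ± 0.11 on the log2 scale. At 24 h of TNF Ptcd3 (-0.81 ± 0.12) and Dap3 (-0.48 ± 0.10) were also lower. Chchd1, of the same list, was higher at 24 h (0.39 ± 0.11, limma adjusted p = 0.0144). With all 21 arrays Dap3 was called at 24 h (limma adjusted p = 0.0298), and Ptcd3 and Chchd1 were not. Of 13 translation factors 7 fell at 24 h (median -0.53) and 4 at 6 d (median -0.38), against 0 and 5 with all 21 arrays. Gfm1, the elongation factor that moves the ribosome along the messenger, fell by 0.68 ± 0.11 at 6 d, and Tufm, which brings in charged transfer RNA, fell by 0.57 ± 0.13.

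Of 21 ribosome assembly genes 5 fell at 24 h of TNF and 4 at 6 d (0 and 6 with all 21 arrays), with Mtg1, a GTPase of large subunit assembly, at -0.70 ± 0.12. Of 18 genes that charge mitochondrial transfer RNA, which are aminoacyl-tRNA synthetases and subunits of the amidotransferase that makes glutaminyl-tRNA, 6 fell at 24 h and 8 at 6 d (median -0.34), against 0 and 7 with all 21 arrays, among them Cars2 (-0.67 ± 0.10) and Nars2 (-0.58 ± 0.12). Under Dex Ears2, the glutamyl synthetase, rose by 0.90 ± 0.14 at 24 h and 0.87 ± 0.14 at 6 d, and it was called with all 21 arrays as well (limma adjusted p = 0.0395 and 0.0289). Gatb, a subunit of the amidotransferase, rose by 0.59 ± 0.10 at 6 d.

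Nuclear-encoded subunits of the respiratory chain and ATP synthase, which assemble with the products of these ribosomes, gave 52 of 80 lower and 2 higher at 24 h of TNF (median -0.28) and 47 lower and 0 higher at 6 d (median -0.31). With all 21 arrays 15 were lower at 24 h and 47 at 6 d. The members' 16 of 76 at 24 h and 20 of 76 at 6 d stand beside these counts, and the difference between the lists was not tested. Cytosolic ribosomal proteins gave 13 of 44 higher and 0 lower at 6 d of TNF, with a median of 0.17. That direction depended on the outlying array, as their median was -0.10 and 1 was called higher with all 21 arrays. At 6 d of Dex 16 of the 44 cytosolic proteins were higher and 0 lower (median 0.14), while of the respiratory chain list 1 was higher and 11 lower (median -0.05). Of all genes 23.9% were called at 6 d of Dex in that fit, a larger share than in the respiratory chain list, and 8.3% with all 21 arrays. Of 9 genes of mitochondrial DNA transcription and maintenance 2, Mgme1 and Polg, fell at 6 d of TNF, and 4 rose at 6 d of Dex. With all 21 arrays the Dex 6 d calls were 0 for the cytosolic proteins, 3 lower for the respiratory chain and 0 for the DNA maintenance list.

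Among regulators of nuclear genes for mitochondria, Ppargc1b, a coactivator of the PGC-1 family, was lower after 2 h (-1.98 ± 0.19) and 24 h (-0.71 ± 0.19) of TNF and Esrra, its nuclear receptor partner, was lower at all 3 TNF times, by -0.82 ± 0.14, -0.60 ± 0.14 and -0.65 ± 0.16. Ppargc1a, the best known coactivator of that family, was lower at 2 h (-0.66 ± 0.18) and 24 h (-0.70 ± 0.18) and higher at 6 d of TNF (0.67 ± 0.20), and lower at 2 h of Dex (-1.49 ± 0.18), and none of these changes of Ppargc1a was called with all 21 arrays. The change of Ppargc1b at 24 h of TNF was not called with all 21 arrays either (limma adjusted p = 0.114). Gabpb1, a subunit of GABP, was higher after 2 h of TNF (2.06 ± 0.14). Gabpa (-0.20 ± 0.13), Nrf1 (0.11 ± 0.14) and Yy1 (0.14 ± 0.16) were not called at 2 h of TNF, nor at any Dex time. At 6 d of TNF Gabpb1 was lower with all 21 arrays (-0.60 ± 0.18, limma adjusted p = 0.0308). Without replicate 2 that change was -0.40 ± 0.16 and was not called (adjusted p = 0.0873). Myc was higher at each Dex time, by 1.24 ± 0.15, 0.86 ± 0.15 and 1.70 ± 0.15, while Ppargc1b was lower at 2 h of Dex (-1.23 ± 0.19) and higher at 6 d (0.87 ± 0.19). Pprc1, on the same list, was higher at 2 h of Dex (0.86 ± 0.16), and was not called with all 21 arrays (limma adjusted p = 0.16). Whether any of these changes bears on the members was not tested.

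**Figure D4:**
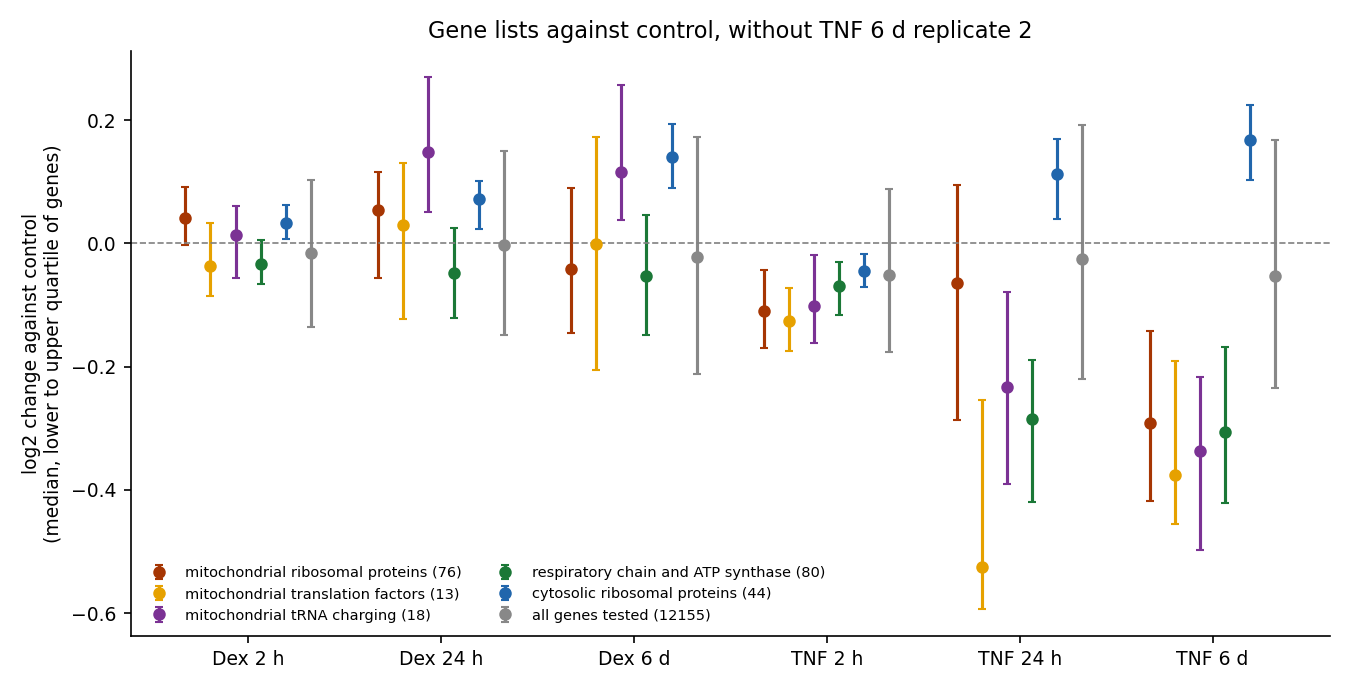
Median log2 change against control (points) with the lower to upper quartile of genes (bars) for 5 gene lists and all genes tested, fitted without TNF 6 d replicate 2. At 6 d of TNF the mitochondrial ribosomal proteins lie at -0.29, between cytosolic ribosomal proteins at 0.17 and translation factors at -0.38, and at 24 h they lie at -0.06 while the respiratory chain lies at -0.28.

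Some cell type markers moved with the TNF groups. The mean log2 level of the 9 adipocyte markers was 12.93 to 12.96 on the control arrays, 11.80 to 12.39 after 24 h of TNF and 11.53 to 12.37 after 6 d, and that of 7 preadipocyte or fibroblast markers was 9.84 to 10.10 in control, 10.25 to 10.55 after 6 d of TNF and 8.78 to 9.07 after 6 d of Dex. The 7 preadipocyte or fibroblast markers moved in different directions. In control, TNF 6 d and Dex 6 d, in that order, Pdgfra averaged 11.33, 12.77 and 11.71 and Pdgfrb 11.33, 12.08 and 9.68. Thy1 averaged 8.05, 8.31 and 6.85 and Col1a1 10.32, 10.66 and 7.87. Dlk1 averaged 10.29, 9.905 and 9.48 and Col3a1 14.52, 14.39 and 13.2. Cd34 stayed below 5.34 on every array. The TNF 6 d means include replicate 2. Of 6 macrophage markers, Cd14 was at 8.37 at both later TNF times against 6.60 in control. Cd68 was at 5.21 in control, 6.78 at 24 h of TNF and 4.99 at 6 d, and Csf1r was at 6.45, 6.96 and 6.78. Adgre1, Ptprc and Itgam stayed below 5.34 on all 21 arrays. The mean level of the list was 5.01 to 5.15 in control, 5.63 to 5.83 after 24 h of TNF and 5.45 to 5.50 after 6 d. The part of the marker changes in the members' changes was not tested.

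For 35 members more than 1 probe set was bright enough to compare. All bright probe sets of a gene moved in 1 direction for 25 of these 35 at 24 h of TNF and 23 of 35 at 6 d without replicate 2, and for 15 of 35 at 2 h of Dex, where changes were smallest. For the members with several probe sets, the values given here rest on the brightest.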

How the data were processed

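Expression was measured on 21 one-colour Affymetrix arrays, 3 in each of 7 groups taken from the sample labels. Per the submitters' processing notes the authors used RMA, with no version named, and the deposited values were read as log2 intensities from their range up to 15.06. The software and annotation build of the authors are not given in the sources used here. Of 45101 deposited probe sets, 34958 list 1 gene symbol in the platform annotation. Each gene was taken from its 1-symbol probe set with the highest mean, and 12155 genes with at least 3 arrays above the median of all values (5.34) were tested.

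A single limma model held all arrays with 1 mean for each group, and eBayes was run with a trend and 14 residual degrees of freedom. Files were read with data.table (version 1.17.8), and fits used limma 3.58.1, under R 4.3.3. P-values are two-sided, adjusted by Benjamini and Hochberg over all genes tested, with a threshold of 0.05. The SE comes from the spread of all groups, so it does not measure the spread of the compared groups alone. An exact test of 3 arrays against 3 cannot give a p below 0.1. Arrays have no depth, and their number limits the precision. The script was tested on simulated data.

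The members, lists, motifs and the rule for named genes were chosen with earlier results of these data known, so no list was tested as a set. Named genes were up to 4 called members each way per comparison, the 3 largest changes where a comparison with control called fewer than 3, the members called most often, members fixed for their role and up to 3 called genes per companion list. Mrps22, Mrpl39 and Mrpl13 were chosen after their values were seen. The fit on 17 arrays was added after seeing the data. Same-numbered arrays deviated together (all correlations above 0.1) between Dex 24 h and control arrays (0.232 to 0.447) and between the Dex and TNF arrays at 24 h (0.207 to 0.27), and not in the other 11 comparisons. Probe sets that list several genes, 4 of them with a member, were not used here.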

Additional observations from a re-analysis of the deposited data

Results flagged for a closer look

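Several members differed between Dex and TNF at the same time, by the fitted difference of the groups itself (limma, adjusted over all genes tested, Dex minus TNF on the log2 scale). With all 21 arrays these were Mrpl12 (0.80, adjusted p = 0.000982) and Mrpl15 (0.65, adjusted p = 0.0341) at 24 h. At 6 d they were Mrps5 (1.53), Mrps35 (1.35), Mrpl46 (1.22), Mrpl16 (1.12), Mrps18b (1.07) and Mrps30 (0.98), with adjusted p between 0.00051 and 0.0427. All of these 6 d differences include the outlying TNF 6 d replicate 2, and without it the difference of Mrpl16 was 0.43 (adjusted p = 0.121) while the other 5 were 0.62 for Mrps5, 0.67 for Mrps35, 0.66 for Mrpl46, 0.78 for Mrps18b and 0.64 for Mrps30 and were still called.

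Without TNF 6 d replicate 2, Mrps31 also differed at 2 h (0.34, limma adjusted p = 0.0343), and at 24 h Mrpl37 (0.66) and Mrpl16 (0.64) were higher under Dex. Mrpl38 (-0.66), Mrpl54 (-0.56), Mrpl52 (-0.41) and Mrps6 (-0.41) were lower under Dex at 24 h, and Mrps6 was lower at 6 d (-0.44), with adjusted p between 0.00466 and 0.0343 over these results. TNF 24 h replicate 3, an array of high 3′ minus 5′ difference, stood apart from replicates 1 and 2 for 5 of these members. On the 17 arrays the 24 h difference of Mrpl37 was 0.40, that of Mrpl16 0.37, of Mrpl54 -0.36 and of Mrps6 -0.26, all still called, and that of Mrpl52 was -0.24 and not called (limma adjusted p = 0.159).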

How the results depend on the processing

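Both the number of members called and, at 6 d of TNF, their median change moved with the arrays and settings used. The counts in this section stand without the share of all genes called in each fit, so they show only how the calls moved. The median of TNF 6 d against control went from -0.77 to -0.29 and that of Dex against TNF at 6 d from 0.79 to 0.29 without TNF 6 d replicate 2. Over the 13 comparisons, leaving out single arrays aside, 77 alternative counts stayed within 1.5 times of the count with all arrays and 40 did not. Of the medians 116 moved by less than 1 SD of the arrays, a measure that TNF 6 d replicate 2 itself widens in the 6 d TNF group, and the exception was Dex 6 d against Dex 24 h, at 0.0011 on the 17 arrays. For the members named, 1546 alternative values kept their side of the threshold, 124 lost the call and 99 gained it. Of the values called in either fit, 0 reversed direction. Changes of direction among values called in neither fit were not counted.

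Counts that moved were as follows. For Dex 24 h against control the count of 1 became 0 with no filter, the mean of all probe sets, no _x_at or _s_at probe sets, median centring or the replicate block, and 3 with only the 2 groups fitted. For Dex 6 d against control it became 2 with quantile normalization and 6 with only the 2 groups. For TNF 2 h against control and Dex against TNF at 2 h it became 1 without _x_at and _s_at probe sets. For TNF 24 h against control it became 2 with the 60th percentile filter, the mean of all probe sets or no _x_at or _s_at probe sets, and 6 with quantile normalization or only the 2 groups. For TNF 6 d against control the 27 became 16 with no filter, 14 with median centring and 0 with only the 2 groups. The cause of these moves was not tested. With only the 2 groups it also became 0 for Dex against TNF at 6 d and for TNF 6 d against 24 h, 13 for Dex against TNF at 24 h, 11 for Dex 24 h against 2 h and 2 for TNF 24 h against 2 h. With quantile normalization it became 10 for Dex against TNF at 24 h, 1 for Dex 24 h against 2 h, 4 for TNF 24 h against 2 h and 11 for TNF 6 d against 24 h, and with median centring it became 1 for Dex against TNF at 24 h. On the 17 arrays, in the order of comparisons Dex 24 h, Dex 6 d, TNF 2 h, TNF 24 h and TNF 6 d against control, counts were 8, 14, 6, 26 and 42. On them they were 5, 39 and 48 for Dex against TNF at 2 h, 24 h and 6 d, 10 and 1 for the Dex steps, and 20 and 9 for the TNF steps.

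Leaving out each array in turn gave 0 to 0 called members for Dex 2 h, 0 to 3 for Dex 24 h, 0 to 10 for Dex 6 d, 0 to 0 for TNF 2 h, 1 to 17 for TNF 24 h and 4 to 66 for TNF 6 d against control. It gave 0 to 1, 1 to 25 and 13 to 60 for Dex against TNF at 2 h, 24 h and 6 d, 0 to 2 and 0 to 0 for the Dex steps, and 0 to 12 and 0 to 48 for the TNF steps. The median of Dex 6 d against 24 h ranged from -0.12 to 0.0011, the latter without Dex 6 d replicate 2. With a replicate block, fitted for the pairing by number, the counts were 0 for Dex 24 h, 1 for TNF 24 h and 28 for TNF 6 d against control, 3 and 37 for Dex against TNF at 24 h and 6 d and 7 for TNF 6 d against 24 h, and 0 elsewhere.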
